A study of Mus musculus with 29 samples.

Results

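The response of a normal-genotype colon to chemically induced colitis was read from 16 of the 29 arrays of the series, each array holding the RNA of 1 distal colon. All 16 came from female wild-type C57BL/6 mice aged 18 to 24 weeks. The 8 AOM/DSS mice had received azoxymethane (AOM), an alkylating colon carcinogen, once at 7.4 mg/kg into the peritoneum, and then 3% dextran sulfate sodium (DSS), a sugar polymer that injures the colonic epithelium, in the drinking water for 7 days. The 8 untreated mice had received neither agent, so that the effects of AOM and of DSS cannot be told apart. The labels place the AOM/DSS colons at week 5 after 1 DSS cycle, whereas the study's methods describe a further cycle and a later week for the array cohort. Which of these holds could not be settled from the values. The other 13 arrays are of Cygb-/- mice, which lack cytoglobin, a haem protein of fibroblast-like cells, and they are used below for 1 comparison.

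The colon is lined by a single layer of epithelium that is renewed from stem cells at the base of the crypts. Absorptive colonocytes take up water, salt and short-chain fatty acids and detoxify compounds from the lumen, goblet cells secrete mucus, and enteroendocrine and tuft cells sense the luminal content. When DSS breaks this layer, bacteria reach the tissue, neutrophils and monocytes enter from the blood, the surviving crypts switch to a wound repair programme, and fibroblasts remodel the matrix. In mice primed with AOM, repeated injury and repair leads to adenomas in which the Wnt pathway, the main growth signal of the crypt, is switched on. Paneth cells, which secrete antimicrobial peptides, belong to the small intestine of the mouse and are normally absent from its colon.

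Values are log2 array values, in which a difference of 1 is a 2-fold difference. Array medians lay between 4.77 and 4.88, and the mean lower quartile of the 16 arrays was 3.32. Signals for 6 genes of the Y chromosome, absent from these females, ran from 1.91 to 4.41. A group mean at or below 3.32 was treated as no measurable level, by choice, and a fold against it is given as "at least". Since signals of absent genes reached 4.41, means between 3.32 and 4.41, such as that of Abca12 after AOM/DSS or of Il1a without treatment, are not shown to be above background, and folds against them are given as measured only. The epithelial genes Epcam, an adhesion molecule, and Vil1, a brush border protein, were high in every array. Epcam lay between 10.82 and 11.21 in AOM/DSS colons and between 10.90 and 11.02 in untreated colons, and Vil1 between 10.29 and 10.81 and between 10.58 and 10.81. Neither differed past the threshold (log2 fold changes of 0.02 and -0.03). Of 9 measured adipocyte genes 3 were lower after AOM/DSS, and the list score, the mean of its genes around their mean over the 16 arrays, was 0.94 and 0.88 in untreated replicates 3 and 8 against -0.28 to 0.25 in the other untreated arrays. In bulk tissue, fewer cells of a type and less RNA per cell cannot be told apart.

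AOM/DSS changed a large part of the measured transcriptome, with more strong rises than strong falls. Of 22180 genes named by exactly 1 symbol, 3588 were higher after AOM/DSS (16.2%) and 4023 were lower (18.1%) at an adjusted p under 0.05, from limma, adjusted by the Benjamini-Hochberg method for the 41345 probe sets on the array. A gene past this threshold is called here. Most differences were modest, with a median absolute log2 fold change of 0.40 among called genes. At least 2-fold differences were called for 643 genes that rose (2.9%) and 267 that fell (1.2%), and at least 8-fold differences for 38 and 17. All 8 AOM/DSS arrays lay above all 8 untreated arrays in 1406 genes (6.34%) and below them in 1504 genes (6.78%). The median log2 fold change of all genes was -0.05.

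**Figure D1:**
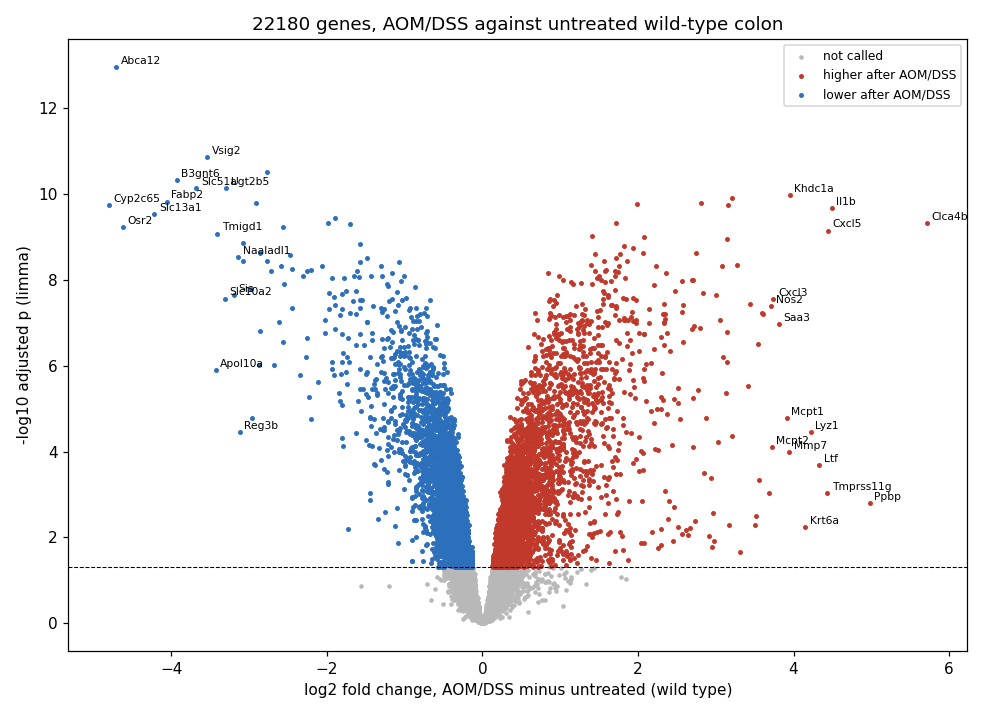
Log2 fold change of each gene (AOM/DSS minus untreated, horizontal) against -log10 of its adjusted p (vertical). Red genes are called higher, blue genes called lower and grey genes not called, the dashed line is the threshold, and the 15 highest and 15 lowest called genes are named. Abca12, at a log2 fold change of -4.71, has the smallest adjusted p, and among the highest rises the adjusted p ranges from 1.05e-10 for Khdc1a to 0.00582 for Krt6a.

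The largest rise was that of Clca4b, a member of the calcium-activated chloride channel regulator family. Its log2 values were 11.99, 11.93, 12.02, 11.96, 11.51, 12.05, 11.95 and 12.49 in AOM/DSS replicates 1 to 8, against 5.42 to 7.79 (median 5.87) in untreated colons. The groups were far apart: the gene rose 52.5-fold (5.71 on the log2 scale, standard error 0.29, limma adjusted p = 4.59e-10). Clca4a, a neighbouring member of the same family, had a log2 fold change of 0.08 and was not called. Il1b, the cytokine interleukin 1 beta, was 9.34, 10.14, 9.26, 9.36, 9.53, 10.16, 9.62 and 10.65 in AOM/DSS replicates 1 to 8 and 4.91 to 6.13 (median 5.12) without treatment. It rose in every AOM/DSS colon, 22.4-fold (log2 fold change 4.49, standard error 0.21, adjusted p = 2.12e-10 from limma).

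Other genes among the 15 largest rises were also above the untreated range in all 8 AOM/DSS colons. The neutrophil-attracting chemokine Cxcl5 rose 21.6-fold, from 4.45 to 5.33 (median 4.88) to 7.94 to 9.85 (median 9.47). Cxcl3, a chemokine that acts on the same receptor, was not measurable in untreated colons (1.98 to 2.95) and lay between 4.66 and 6.96 after AOM/DSS, at least 7.44-fold higher. The acute phase protein Saa3 rose 14.1-fold and the inducible nitric oxide synthase Nos2 13.1-fold. Khdc1a, a gene of the KH domain family best known from the oocyte, rose 15.5-fold with no overlap of the groups, from 3.08 to 4.45 to 7.11 to 8.03 (log2 fold change 3.95, standard error 0.17, adjusted p = 1.05e-10 from limma). The remaining large rises, Ppbp, Tmprss11g, Ltf, Krt6a, Lyz1, Mmp7, Mcpt1 and Mcpt2, varied widely among the AOM/DSS colons and are described with that variation.

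The 15 largest falls were tighter than the largest rises, and the 2 groups did not overlap in 14 of them. Cyp2c65, a cytochrome P450 of the gut epithelium, was 9.16, 9.17, 9.07, 9.06, 9.50, 9.41, 9.13 and 8.91 in untreated replicates 1 to 8 and 3.51 to 5.64 (median 4.32) after AOM/DSS. It fell 27.9-fold (log2 fold change -4.80, standard error 0.22, adjusted p = 1.77e-10 from limma). Abca12, a lipid transporter best known from the skin, fell from 7.95 to 8.97 (median 8.27) to 3.49 to 3.85 (median 3.61), with the smallest adjusted p of all genes (log2 fold change -4.71, standard error 0.12, adjusted p = 1.06e-13 from limma). In all 8 AOM/DSS colons it lay just above the level treated as not measurable. Osr2, a zinc finger transcription factor, was 9.43 to 10.19 without treatment and 4.28 to 6.34 after it, 24.5-fold lower.

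Many of the other large falls were of transporters, binding proteins and enzymes of absorptive epithelium. The sulfate transporter Slc13a1 fell 18.6-fold, the fatty acid binding protein Fabp2 16.7-fold, the bile acid exporter subunit Slc51a 12.8-fold, the apical bile acid transporter Slc10a2 9.93-fold, and sucrase-isomaltase, Sis, 9.21-fold. B3gnt6, the glycosyltransferase that builds core 3 mucin sugars, fell from 8.69 to 9.54 (median 9.24) to 4.55 to 5.99 (median 5.27), 15.3-fold. The adhesion protein Tmigd1 fell 10.6-fold, the peptidase Naaladl1 8.82-fold and the glucuronosyltransferase Ugt2b5 at least 3.06-fold. The exception to the separation of the groups was Reg3b, an antibacterial lectin, which was 9.35 to 11.91 without treatment and 6.03 to 9.59 after AOM/DSS (log2 fold change -3.12, standard error 0.43, adjusted p = 3.5e-05 from limma). Only AOM/DSS replicate 8, at 9.59, reached the untreated range.

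**Figure D2:**
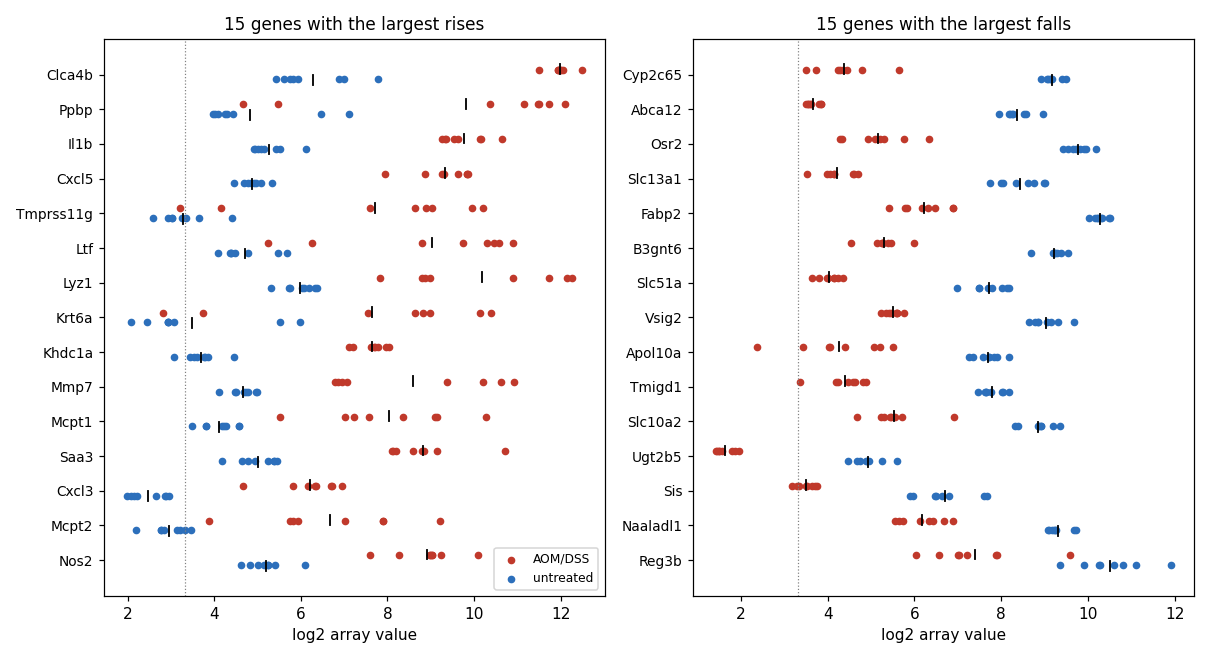
Log2 array values (horizontal) of the 15 called genes with the largest rises (left) and the 15 with the largest falls (right). Each point is 1 colon, red for AOM/DSS and blue for untreated, short black lines are group means of 8 arrays, and the dotted line is the mean lower quartile at 3.32. In 14 of the 15 falls all 8 AOM/DSS colons lie below the untreated colons, with Reg3b the exception, while Ppbp, Tmprss11g, Ltf and Krt6a rose in 6 of them and stayed near the untreated level in replicates 3 and 4.

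The start regions of these genes were read from RefSeq (GRCm38.p6, 250 bases before to 50 after the start, first listed start of each gene), and 16918 of the 22180 genes had one. They are shown for 2 genes that rose and 2 that fell, picked as examples from those with a match. The motifs were searched on both strands: GGGNNTTTC for NF-kB, GAAANNGAA for the interferon response, TGANTCA for AP-1, CAAAGTCCA for HNF4 and CAATAAA for CDX. NF-kB and AP-1 are transcription factors of inflammation and injury, and HNF4 and CDX factors direct intestinal differentiation. Capitals mark the motifs. Among the other largest rises, Ppbp has an AP-1 match and Lyz1 and Saa3 have interferon response matches. Among the other largest falls, Fabp2 has a CDX match, Tmigd1 an AP-1 match, Apol10a an interferon response match, and Slc10a2 AP-1 and CDX matches. Several, such as Il1b, have none. Cxcl3 has an NF-kB match starting 73 bases before the start, Mmp7 an AP-1 match starting 63 bases before it and a CDX match, Cyp2c65 an HNF4 match starting 116 bases before it, and Sis a CDX match starting 52 bases before it.
Cxcl3 (chr5:90785851-90786150, plus strand): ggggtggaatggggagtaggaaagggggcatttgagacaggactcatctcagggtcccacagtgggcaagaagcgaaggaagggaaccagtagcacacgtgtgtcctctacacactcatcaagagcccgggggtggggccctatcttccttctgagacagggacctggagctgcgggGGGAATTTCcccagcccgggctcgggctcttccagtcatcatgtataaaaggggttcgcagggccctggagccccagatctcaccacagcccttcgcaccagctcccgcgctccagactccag
Mmp7 (chr9:7691840-7692139, plus strand): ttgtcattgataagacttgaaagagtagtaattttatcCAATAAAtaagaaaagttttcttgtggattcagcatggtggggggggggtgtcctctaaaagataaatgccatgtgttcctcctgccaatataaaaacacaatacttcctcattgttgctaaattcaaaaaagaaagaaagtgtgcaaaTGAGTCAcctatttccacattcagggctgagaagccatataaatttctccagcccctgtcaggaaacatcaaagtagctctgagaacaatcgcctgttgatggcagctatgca
Cyp2c65 (chr19:39060756-39061055, plus strand): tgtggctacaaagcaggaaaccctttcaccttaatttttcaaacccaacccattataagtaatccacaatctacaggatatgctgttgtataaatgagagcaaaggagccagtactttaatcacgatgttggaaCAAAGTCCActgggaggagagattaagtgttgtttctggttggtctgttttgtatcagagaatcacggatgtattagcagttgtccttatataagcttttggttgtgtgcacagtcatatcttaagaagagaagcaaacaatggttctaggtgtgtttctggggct
Sis (chr3:72967814-72968113, minus strand): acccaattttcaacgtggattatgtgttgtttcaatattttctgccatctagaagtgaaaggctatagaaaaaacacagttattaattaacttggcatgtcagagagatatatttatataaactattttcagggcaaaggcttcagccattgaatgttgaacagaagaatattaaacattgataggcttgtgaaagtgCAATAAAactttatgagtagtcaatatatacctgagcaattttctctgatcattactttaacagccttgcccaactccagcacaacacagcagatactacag

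Over all genes with a start region, the NF-kB letters were found in 4.27%, the interferon letters in 8.1%, the AP-1 letters in 7.37%, the HNF4 letters in 0.437% and the CDX letters in 3.91%. Among the 464 genes called at least 2-fold higher that had one, the shares were 9.27%, 16.6%, 14.4%, 1.08% and 3.88%. Among the 197 called at least 2-fold lower they were 2.54%, 6.09%, 9.14%, 2.54% and 5.58%. The HNF4 letters were found in only 5 genes that fell and 5 that rose. A match is a run of letters and not a bound site, and no test was made of these shares.

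Neutrophil genes rose most among the cell type lists. Of 21 measured members 17 were called higher and 0 lower, with a median log2 fold change of 2.34. The chemokine receptor Cxcr2 was 7.06 to 8.48 (median 7.23) in AOM/DSS colons and 4.01 to 4.64 (median 4.32) in untreated colons, 9.65-fold higher (adjusted p = 4.38e-09 from limma). The granulocyte colony-stimulating factor receptor Csf3r rose 5.53-fold and the decoy interleukin 1 receptor Il1r2 5.08-fold, both without overlap of the groups. The alarmins S100a8 and S100a9, which form calprotectin, had log2 fold changes of 3.61 and 2.57. S100a8 was not measurable without treatment, so that its rise was at least 6.17-fold. The granule genes Mpo (-0.09), Elane (-0.12) and Camp (0.01), transcribed mainly in the bone marrow before neutrophils mature, were not called, given here as log2 fold changes. Camp was at or below the measurable level in both groups. Other granule genes of the list, Ltf and Lcn2, were called higher. The list score was lowest in AOM/DSS replicate 4 (0.36) and highest in replicate 8 (1.85), against -1.11 to -0.82 in untreated colons.

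Monocyte and macrophage genes rose almost as a whole. Of 21 measured members 20 were called higher and 0 lower (median 1.29), and in 19 of them all 8 AOM/DSS arrays lay above all untreated arrays. The lysosomal glycoprotein Cd68 was 9.28 to 9.87 (median 9.60) after AOM/DSS and 7.56 to 8.34 (median 7.88) without, 3.27-fold higher (adjusted p = 6.17e-09 from limma). The integrin Itgam rose 3.08-fold and the Fc receptor Fcgr1 3.52-fold. Ccr2, the receptor that brings monocytes from the blood, and Ly6c2, which marks them, had log2 fold changes of 2.08 and 1.29, while Cx3cr1 and Mrc1, which mark resident macrophages, had 0.60 and 0.94. Cd163, the scavenger receptor of resident macrophages, was the member not called, at -0.33.

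Lymphocyte genes rose as well. Of 15 measured T cell genes 11 were called higher and 0 lower (median 0.92), among them the costimulator Icos (2.42-fold) and Foxp3, the factor of regulatory T cells (2.21-fold, from 4.72 to 5.30 to 5.88 to 6.40). Cd4 had a log2 fold change of 1.65 and Cd8a 0.28, the latter not called, and neither Ifng (0.18) nor Tbx21 (0.03), which mark type 1 responses, was called. Of 16 measured B and plasma cell genes 15 were called higher and 0 lower (median 1.24). The complement receptor Cr2, of B cells and follicular dendritic cells, rose 5.51-fold and the B cell protein Ms4a1 (CD20) 4.99-fold, and the plasma cell genes Mzb1 and Jchain had log2 fold changes of 1.59 and 0.86. Ighm rose by 0.67 on the log2 scale, although its probe sets disagree. Madcam1, the vessel ligand that lets lymphocytes enter the gut, rose 2.73-fold and Cxcl13, which draws B cells into follicles, 2.29-fold.

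Mast cell genes rose unevenly. Of 15 members 10 were called higher and 1 lower. The mucosal mast cell proteases Mcpt1 and Mcpt2 rose 15.1-fold and at least 10.2-fold. Mcpt1 was 5.51, 7.02, 10.28, 7.57, 9.10, 8.35, 9.15 and 7.22 in AOM/DSS replicates 1 to 8, all above the untreated range of 3.48 to 4.57, but far apart among themselves. Hdc, which makes histamine, rose 4.22-fold. The eosinophil genes Epx and Siglecf had log2 fold changes of -0.14 and -0.22 and were not called, whereas Prg2 was called at 0.38. The member that fell was Kit, a receptor of mast cells and also of the interstitial cells of Cajal in the muscle, which was 7.76 to 8.57 after AOM/DSS and 9.19 to 9.53 without.

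Cytokine genes, the signals that pass between these cells, rose in part. Of 24 cytokine genes 11 were called higher and 0 lower. Il1a was 5.53 to 7.35 (median 6.41) after AOM/DSS and 2.85 to 3.76 (median 3.50) without, 8.31-fold higher, Il1f9 (interleukin 36 gamma) rose at least 5.72-fold, and Tnf rose 3.63-fold. The antagonist Il1rn had a log2 fold change of 0.88. Il11 and Il23a, a stromal and a myeloid cytokine of colitis, had 1.44 and 1.21. Il6 (0.57), Il17a (0.32), Il22 (0.06), Il10 (0.19) and Csf2 (-0.09) were not called. The cytokine score of AOM/DSS replicate 8 was 0.80, apart from 0.20 to 0.48 in the other 7.

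Of 28 chemokine genes 20 were called higher and 1 lower (median 0.97). The neutrophil attractants Cxcl5, Cxcl3, Cxcl2 (1.91) and Cxcl1 (0.91) rose to different extents, and so did the interferon-induced Cxcl9 (3.41), Cxcl10 (1.63) and Cxcl11 (1.37), given here as log2 fold changes. Ccl3 rose 5.18-fold and the monocyte attractant Ccl2 by 1.46 on the log2 scale. The lower gene was Ccl6 (-0.88). Ccl20 (0.19), Ccl25 (-0.22) and Ccl28 (-0.11), made by gut epithelium, were not called.

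Most interferon-induced and antigen presentation genes rose. Of 24 members 17 were called higher and 1 lower (median 1.14). The class II genes H2-Ab1 and H2-Aa, which present peptides to CD4+ T cells, rose 2.61-fold and 2.43-fold, and Nlrc5, the activator of class I genes, 3.23-fold. H2-Ab1 was already high without treatment (9.93 to 10.64) and lay at 11.30 to 12.03 after it. Ido1, an interferon-induced enzyme that degrades tryptophan, and the guanylate binding protein Gbp5 had log2 fold changes of 2.54 and 2.24. The antiviral gene Ifit2 had the smallest p of the list and rose 2.48-fold. Ifit3 (0.07), Rsad2 (-0.09), Ifit1 (0.33) and Isg15 (0.44) were not called, and Irf7 fell (-0.54). AOM/DSS replicate 5 had the lowest score of its group (-0.19, against 0.32 to 1.04 in the other 7) and lay inside the untreated range of -0.71 to -0.14.

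Secreted defence genes rose in part. Of 23 measured members 10 were called higher and 4 lower, the lower calls near the 18.1% of all genes. Pla2g2a, a bactericidal phospholipase, rose 11.6-fold, from 5.00 to 6.07 to 7.94 to 10.33, and the protease inhibitor Slpi 5.09-fold. Lcn2, which withholds iron from bacteria, rose 8.86-fold, while Reg3b, Wfdc2 (2-fold) and Zg16 (1.21-fold) fell. The last of the 4 lower calls, Reg3a (-0.54), was below the measurable level in both groups. Reg3g and Retnlb, at -0.51 and -0.25, were not called. Complement and acute phase genes rose almost throughout, with 16 of 17 called higher and 0 lower (median 1.32). The C3a receptor C3ar1 rose 2.95-fold, the C1q subunits C1qa and C1qb 2.50-fold and 2.53-fold, and the leucine-rich glycoprotein Lrg1 8.47-fold, from 5.14 to 5.96 to 7.92 to 9.62.

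The stroma changed along with the immune cells. Of 18 matrix proteases and inhibitors 16 were called higher and 0 lower (median 1.40). Mmp10, stromelysin 2, was 6.79 to 9.01 (median 8.08) in AOM/DSS colons and 4.30 to 5.18 (median 4.98) in untreated colons, 8.54-fold higher, the neutrophil gelatinase Mmp9 rose 5.03-fold, and the fibroblast gelatinase Mmp2 2.11-fold. Among 28 matrix and fibroblast genes 21 were called higher and 1 lower (median 0.70). Lox, which crosslinks collagen, rose 4.70-fold, Spon1, spondin 1, 3.54-fold, and the fibrillar collagens Col1a1 and Col3a1 rose 2-fold and 2.09-fold. Fap (-0.05), Postn (0.21) and Tnc (0.01), also linked to activated fibroblasts, were not called. Of 20 endothelial genes 14 were called higher and 1 lower, led by the leukocyte adhesion molecules Selp (5.31-fold), Vcam1 (4.19-fold) and Icam1 (2.74-fold), while Vegfa fell (-0.35).

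Genes of the muscle wall and its nerves were lower. All 14 smooth muscle genes were called lower, with a median of -0.55, although the groups were fully apart in only 4. Mylk, the kinase that starts contraction, was 6.41 to 7.15 after AOM/DSS and 7.54 to 7.99 without (log2 fold change -0.91, standard error 0.10, adjusted p = 2.05e-06 from limma), and the desmin gene Des had -0.66. Acta2, which activated fibroblasts share with muscle, had the smallest fall (-0.26). Of 16 genes of enteric neurons, glia and interstitial cells of Cajal 11 were called lower and 1 higher (median -0.47). The neuronal hydrolase Uchl1 fell 1.79-fold, the synaptic protein Syt1 1.58-fold and the neuropeptide galanin, Gal, 2.08-fold. The glial genes Sox10 (-0.25) and Gfap (-0.23) were not called, and Tac1, the substance P precursor, was the member that rose (0.67). How much muscle each piece of tissue held was not tested.

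The epithelium lost the expression of its differentiated cells to different degrees. Of 29 measured absorptive colonocyte genes 22 were called lower and 0 higher, and the groups were fully apart in 16 of them. Guanylin, Guca2a, had a log2 fold change of -2.25, the sodium-hydrogen exchanger Slc9a3 -1.62, carbonic anhydrase 4, Car4, -1.02, and the chloride-bicarbonate exchanger Slc26a3, which is lost in congenital chloride diarrhoea, -0.76. Genes that all differentiated epithelial cells share changed little, with -0.19 for Krt20 and -0.06 for Lgals4, neither called. The score of the list lay between -0.89 and -0.20 in AOM/DSS colons and between 0.43 and 0.64 in untreated colons.

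Secretory and sensory epithelial genes fell with them. Of 24 goblet cell and mucin genes 14 were called lower and 2 higher. Muc2, the main mucin of the colon, was at 13.18 to 13.29 without treatment, near the top of the scale, and at 12.56 to 12.96 after it, 1.39-fold lower (adjusted p = 1.76e-05 from limma). Spdef, a factor of goblet cell maturation, fell 2.34-fold and the mucin glycosyltransferase Gcnt3 3.13-fold. Muc1, a mucin bound to the cell surface, rose (1.28). Of 16 enteroendocrine genes 12 were called lower and 0 higher (median -0.92), with the groups fully apart in 11. Neurotensin, Nts, fell 8.47-fold, from 6.93 to 8.20 to 3.84 to 4.72, somatostatin, Sst, 3.81-fold, the prohormone convertase Pcsk1 3.74-fold and chromogranin A, Chga, 3.28-fold, while peptide YY, Pyy, fell by only 0.38 on the log2 scale. Of 14 tuft cell genes 9 were called lower and 2 higher, the higher calls near the 16.2% of all genes. The taste G protein Gnat3 fell 2.87-fold and Rgs13 3.26-fold, and the members that rose, Alox5ap (1.03) and Plcb2 (0.68), are also made by leukocytes.

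Genes that set the barrier and the flow of ions moved more narrowly. Of 19 tight junction and adhesion genes 8 were called lower and 2 higher. The channel-forming claudin Cldn15 fell 2.50-fold and Cldn2, another pore-forming claudin, 1.44-fold, occludin, Ocln, fell 1.40-fold, and the sealing claudins Cldn1 (0.99) and Cldn4 (1.06) rose. Of 23 ion, water and nutrient transport genes 9 were called lower and 4 higher, the higher calls near the 16.2% of all genes. The chloride channel Cftr fell 2.22-fold and the bicarbonate cotransporter Slc4a4 2.39-fold. Besides Clca4b, the cystine importer Slc7a11 rose 7.12-fold, from 4.12 to 4.63 to 6.02 to 8.05.

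The metabolism of the colonocyte fell across several pathways. Of 39 genes of drug and xenobiotic metabolism 29 were called lower and 1 higher (median -0.98), with the groups fully apart in 25 that fell. After Cyp2c65, the largest falls were those of the cytochrome Cyp4b1 (8.44-fold), Cyp2c55 (-2.87 on the log2 scale) and the carboxylesterases Ces1g (7.25-fold) and Ces1f (5.46-fold). Gsta3, a glutathione transferase, was the member that rose (0.77). Of 24 genes of butyrate, fatty acid and ketone metabolism 18 were called lower and 1 higher. Acads, the mitochondrial dehydrogenase for butyrate and other short-chain fatty acids, was 8.05 to 8.66 after AOM/DSS and 9.23 to 9.65 without (2.06-fold lower), and Ppara, the nuclear receptor that drives fatty acid oxidation, fell 3.06-fold. Of 23 oxidative phosphorylation genes 15 were called lower and 0 higher, by small amounts (median -0.28), led by Ndufa1 (1.60-fold).

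Other metabolic lists were mixed. Of 15 cholesterol and fatty acid synthesis genes 9 were called higher and 1 lower, with log2 fold changes of 0.59 for Fdps and 0.54 for Hmgcs1 of the sterol pathway. Of 19 hypoxia and glycolysis genes 7 were called higher and 3 lower, the lower calls near the 18.1% of all genes. The glycolytic activator Pfkfb3 rose 2.45-fold and Hif1a by 0.59 on the log2 scale, while Slc2a1 (-0.07) and Ldha (0.08) were not called. Of 25 redox and nitric oxide genes 12 were called higher and 6 lower, the lower calls near the 18.1% of all genes. Those that rose were led by the phagocyte oxidase subunits Cybb (5.12-fold) and Ncf1 (2.94-fold), Nos2 and Arg1 (3.21 on the log2 scale), and those that fell included Sod1 (-0.49), Cat (-0.44) and Nqo1 (-0.48). Antioxidant enzymes were found on both sides, since the extracellular superoxide dismutase Sod3 rose (0.97). Cygb itself was 8.41 to 9.29 after AOM/DSS and 8.57 to 8.98 without, and was not called (0.25 on the log2 scale with a standard error of 0.11, limma adjusted p = 0.109). That depended on the arrays and on the fit. Without AOM/DSS replicate 3 Cygb was called higher (0.34 on the log2 scale, limma adjusted p = 0.00622). With all arrays kept and array weights it was also called higher (0.27, limma adjusted p = 0.0442). The study itself reported the opposite direction by RT-qPCR, a significant decrease of Cygb mRNA in AOM/DSS wild-type colons. The reason for this difference was not tested.

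**Figure D3:**
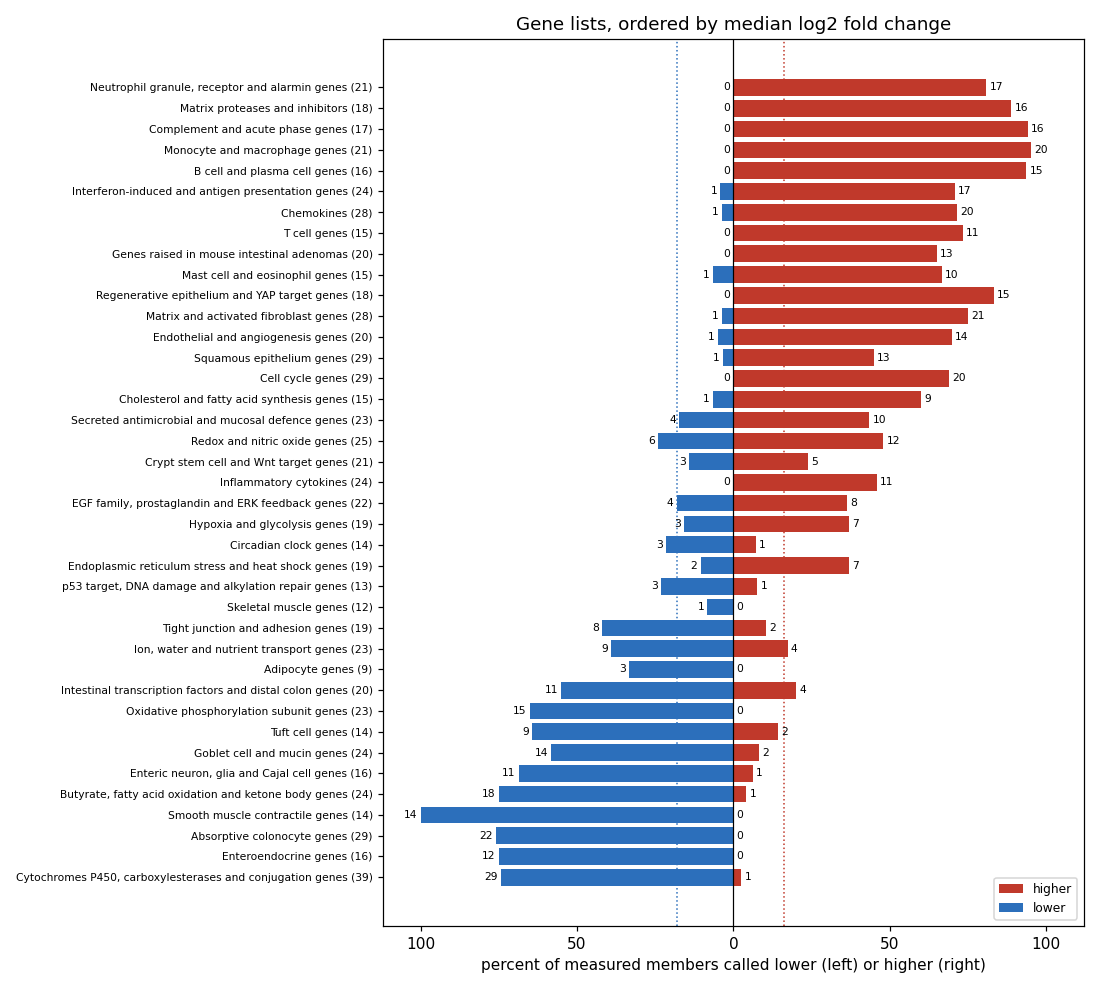
Percent of the measured members of 39 gene lists that were called higher (red, right) or lower (blue, left) after AOM/DSS, with the number of members called at the end of each bar, the number measured in brackets, and the shares among all genes as dotted lines (16.2% higher and 18.1% lower). Lists are ordered by median log2 fold change, from the neutrophil list at 2.34 to the cytochrome and conjugation list at -0.98.

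The list score of epithelial repair genes was raised in all AOM/DSS colons (0.19 to 0.60, against -0.53 to -0.37 in untreated colons). Genes of the cell cycle rose less evenly. Of 18 measured genes of regenerating epithelium 15 were called higher and 0 lower (median 0.74), with the groups fully apart in 10. The annexins Anxa8 and Anxa1 rose 3.91-fold and 2.27-fold, Ly6d, a surface protein of squamous and regenerating epithelium, 6.46-fold from 5.75 to 6.83 to 8.19 to 9.98, and Clu, which marks the injury-induced revival stem cell, by 1.48 on the log2 scale. Of 29 cell cycle genes 20 were called higher and 0 lower (median 0.41), by up to 2.12-fold for Rrm2, a subunit of ribonucleotide reductase. Mki67 had a log2 fold change of 0.33. The number called was 26 without AOM/DSS replicate 1, and 15 without AOM/DSS replicates 3 and 5 or without untreated replicates 3 and 8. Of 22 genes of the EGF family, prostaglandins and ERK feedback 8 were called higher and 4 lower, the lower calls near the 18.1% of all genes. The ligands Nrg1 (2.80-fold) and Ereg (1.11 on the log2 scale) rose, and so did Ptgs2 (1.28), the inducible cyclooxygenase, while the ligand Egf fell 2.47-fold and Hpgd, which degrades prostaglandins, 2.12-fold. Of 13 measured p53 target and repair genes 1 was called higher and 3 lower, near the shares of 16.2% and 18.1% among all genes, with Cdkn1a at -0.32 and the alkylguanine repair gene Mgmt at -0.48.

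Genes of intestinal identity fell more often than they rose. Of 20 measured intestinal transcription factors and distal colon genes 11 were called lower and 4 higher, the higher calls near the 16.2% of all genes. Hoxd13 and Hoxd11, members of this list, rose and are given below with the Hox clusters. Cdx2, the caudal-type homeobox factor that maintains intestinal identity, was 8.72 to 9.13 (median 8.99) in untreated colons and 5.49 to 7.16 (median 6.60) after AOM/DSS, 5.45-fold lower (log2 fold change -2.45, standard error 0.18, adjusted p = 4.53e-08 from limma). Its relative Cdx1 had -0.44, Hnf4a -0.30, Hnf4g -0.65 and Atoh1, the factor of the secretory lineage, -0.73, all called. Isx, an intestine-specific homeobox factor chosen after its values were seen, had a log2 fold change of -2.97, from 9.23 to 10.03 to 5.64 to 7.61. Klf5 (-0.04) and Gata6 (-0.12) were not called.

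Homeobox genes of the Hox clusters, which mark position along the gut and other axes, changed by cluster. The whole clusters were looked at after the falls of Cdx2 and Isx had been seen, whereas Hoxd13 and Hoxd11 were already in the list above. In Hox B 8 of 10 measured genes were called lower and 0 higher (median -1.07). Hoxb6 was 7.64 to 8.55 in untreated colons and 5.28 to 6.22 after AOM/DSS, 4.97-fold lower, Hoxb5 fell 3.37-fold and Hoxb8 2.67-fold, and the fall reached from Hoxb2 (-0.39) to Hoxb9 (-0.71). Hoxb13, the most posterior gene of the cluster, was 7.31 to 7.80 after treatment and 7.21 to 7.87 without, at a log2 fold change of 0.00. In Hox D 4 of 8 genes were called higher and 3 lower. The posterior gene Hoxd13 was 8.77 to 9.93 after AOM/DSS and 7.76 to 8.33 without, 2.76-fold higher (adjusted p = 8.21e-07 from limma), Hoxd12 (0.78), Hoxd11 (0.75) and Hoxd10 (0.28) also rose, and Hoxd8 (-0.50), Hoxd3 (-0.45) and Hoxd1 (-0.32) fell.

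In Hox A 3 of 9 genes were called higher, among them Hoxa9 (0.67), with Hoxa13 at 0.04, and in Hox C 1 of 9 was called lower. The labels give distal colon for both groups. The exact position of each piece of colon along the distal part was not tested. The Hox B score was similar in all 8 AOM/DSS colons (-0.60 to -0.40) and did not overlap the untreated range of 0.39 to 0.66.

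**Figure D4:**
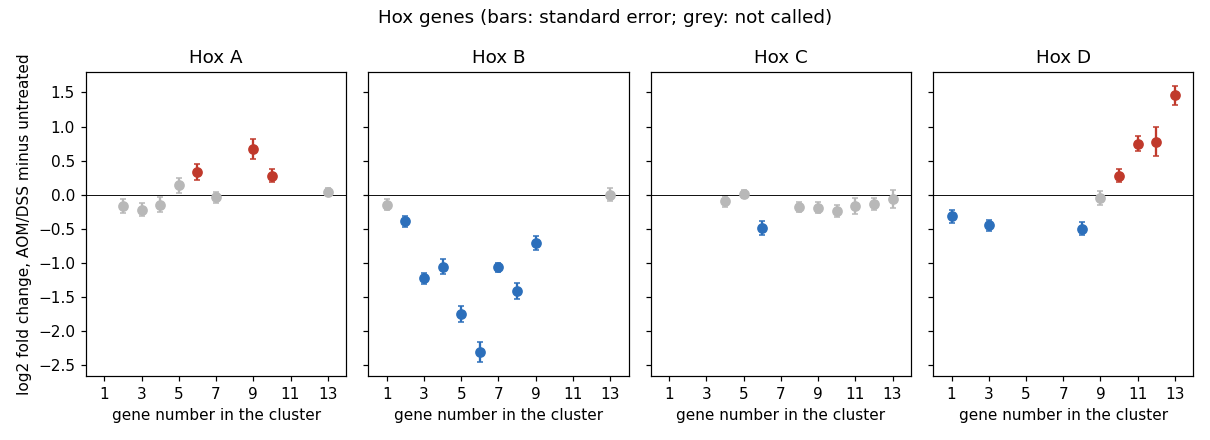
Log2 fold change after AOM/DSS (vertical, with its standard error) of each measured Hox gene by its number in the A, B, C and D clusters. Red genes are called higher, blue lower and grey not called. Hoxb2 to Hoxb9 lie below 0, down to -2.31 for Hoxb6, and Hoxd10 to Hoxd13 lie above 0, up to 1.46 for Hoxd13.

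The AOM/DSS colons differed among themselves far more than the untreated colons in a small set of genes. The median SD over all genes was 0.18 among AOM/DSS arrays and 0.16 among untreated arrays, but 138 genes had an SD over 1 among AOM/DSS arrays and 21 among untreated arrays. In a principal component analysis of the 16 arrays, the first component held 39.2% of the variance and separated the groups, with scores of 26.8 to 58.2 in AOM/DSS arrays and -52.2 to -35.9 in untreated arrays. The second held 11.3% and spread the AOM/DSS arrays from -35.6 to 61.6, while untreated arrays lay between -7.6 and 6.6. In the 8 AOM/DSS arrays alone the first component held 34.1%. Its scores were -35.2, -27.8, 62.7, -23.0, 35.8, -1.6, 15.2 and -26.0 in replicates 1 to 8. The genes with the largest loadings at its positive end were Defa21, Defa22, Pnliprp1, Pnliprp2, Defa24, Mt4, Notum, Spock2, Itln1, Wif1 and Mmp7, several of them named here after their values were seen, and at its negative end Krt6b, Krt6a, Tmprss11b, Ppbp and Tmprss11g.

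Genes at the positive end include Wnt pathway genes and Paneth cell genes. Most of those described here were picked for their large loadings, which fixes that they were high in the same colons, so their values are a description. Notum, a secreted Wnt inhibitor that Wnt signalling itself induces, was 4.83, 5.11, 9.53, 5.48, 9.30, 6.90, 8.29 and 4.49 in AOM/DSS replicates 1 to 8, against 4.29 to 4.73 in untreated colons. Replicates 3, 5, 6 and 7 stood well above the untreated range, and the other 4 lay nearer to it or, in replicate 8, inside it. Wif1, another Wnt inhibitor, was 6.80, 7.36, 11.42, 7.87, 10.94, 9.71, 10.49 and 6.26 against 5.56 to 6.42. The stem cell receptor Lgr5 was 5.87, 6.42, 9.16, 6.76, 9.83, 8.13, 9.03 and 5.98 against 6.57 to 7.26. Thus replicates 3, 5, 6 and 7 were above the untreated range of Lgr5, replicates 1, 2 and 8 were below it, and the mean difference of 0.72 was not called (adjusted p = 0.325 from limma).

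Among the Paneth cell genes described here, replicates 3, 5, 6 and 7 were again the highest. Lyz1, Paneth cell lysozyme, was 8.87, 8.98, 12.26, 8.80, 12.15, 10.90, 11.74 and 7.83 in AOM/DSS replicates 1 to 8, against 5.30 to 6.38 without treatment, so that it was raised in all 8 and most in replicates 3, 5 and 7. Mmp7, the protease that activates Paneth cell defensins and is also made by adenomas, was 6.78, 6.86, 10.92, 7.06, 10.63, 9.38, 10.20 and 6.94 against 4.11 to 4.99. The defensin Defa22 was 4.97, 5.15, 11.22, 5.08, 9.84, 7.97, 9.62 and 4.91 against 3.46 to 4.29. Defensin genes are near-identical copies, so that the signals of Defa21, Defa22 and Defa24 may share one source. Itln1, intelectin 1, was 10.14 and 9.84 in replicates 3 and 5 and 4.98 in replicate 8, overlapping the untreated range of 4.74 to 7.58, and was not called. Ang4, an angiogenin of Paneth and goblet cells, was 5.74 to 10.69 after AOM/DSS and 8.40 to 11.96 without, with a log2 fold change of -1.56 that was not called.

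Of 20 genes raised in mouse intestinal adenomas in general knowledge 13 were called higher and 0 lower, with a median of 0.86. Their mean score was -0.11, 0.03, 1.66, -0.03, 1.73, 0.80, 1.40 and -0.27 in AOM/DSS replicates 1 to 8 and -0.78 to -0.56 in untreated colons. Some members rose in every AOM/DSS colon, such as Ifitm3, an interferon-induced membrane protein (3.10-fold, 10.78 to 12.14 against 9.72 to 9.98). Of 21 crypt stem cell and Wnt target genes 5 were called higher and 3 lower, near the shares of 16.2% and 18.1% among all genes, the latter Rgmb (-0.56), Prom1 (-0.59) and Lrig1 (-0.37). Without AOM/DSS replicates 3 and 5 the counts were 3 and 3, and the median fell from 0.34 to 0.11. Whether the pieces of replicates 3, 5, 6 and 7 held adenoma tissue was not tested.

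**Figure D5:**
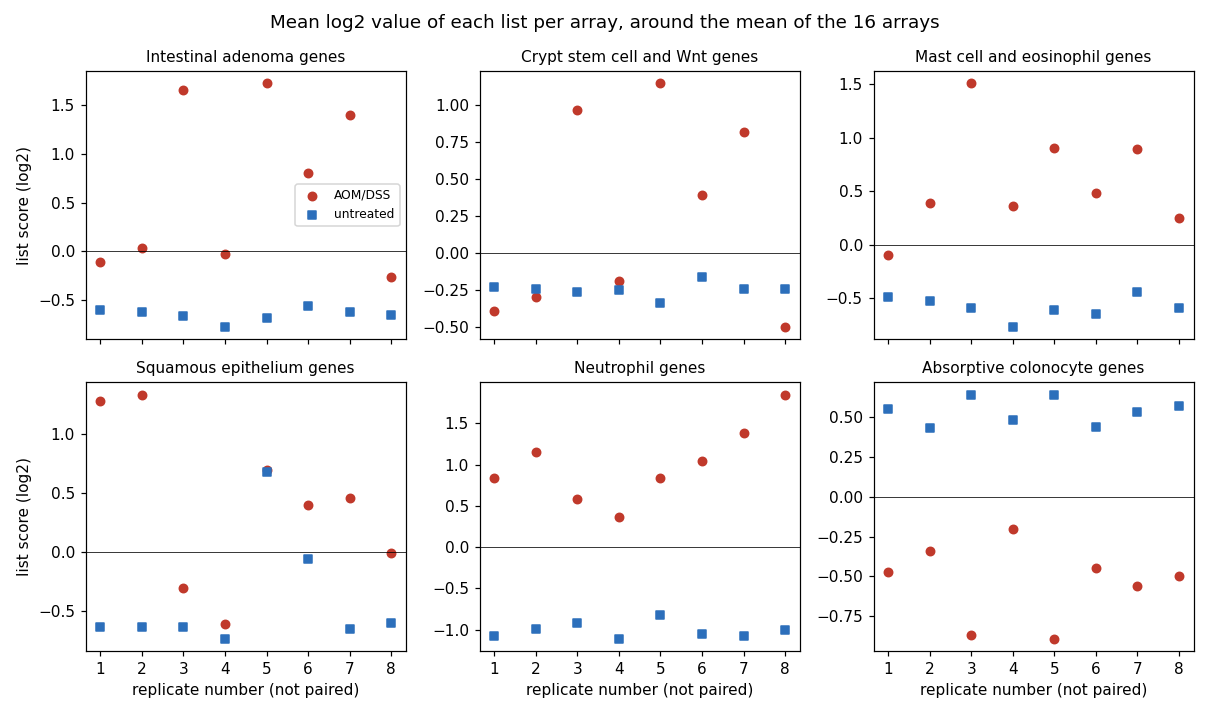
Score of 6 gene lists (vertical, mean log2 value of the members around their mean over the 16 arrays) in each array, red circles for AOM/DSS and blue squares for untreated colons, by replicate number, which does not pair the arrays. AOM/DSS replicates 3, 5, 6 and 7 have the highest adenoma and Wnt scores (up to 1.73 and 1.15), replicates 1 and 2 the highest squamous scores (1.28 and 1.33), and replicate 8 the highest neutrophil score (1.85).

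A separate set of genes, those of stratified squamous epithelium such as lines the anal canal, also varied widely. Its score was above 0 in replicates 1, 2, 5, 6 and 7, below 0 in replicates 3 and 4, and -0.01 in replicate 8. Krt6a, a keratin of wounded and squamous epithelium, was 10.39, 10.14, 3.74, 2.82, 8.98, 8.64, 8.82 and 7.56 in AOM/DSS replicates 1 to 8 and 2.07 to 5.98 (median 2.94) in untreated colons, where replicates 5 and 6 had 5.98 and 5.51. The untreated replicates 5 and 6 thus lay above AOM/DSS replicates 3 and 4. Krt14, a basal cell keratin, rose 11.7-fold and the desmosomal cadherin Dsg3 7.67-fold. Of 29 squamous genes 13 were called higher and 1 lower, but the genes of the cornified surface were not among those that rose, with Lor at -0.33, Flg at -0.21, Ivl at 0.16 and Krt1 at -0.61, none called. The score ran from -0.61 to 1.33 in AOM/DSS colons and from -0.73 to 0.68 in untreated colons.

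Some genes that lead the response moved with the squamous genes. Ppbp, a platelet and epithelial chemokine, was 11.73, 12.10, 5.47, 4.66, 11.48, 11.15, 11.51 and 10.37 in AOM/DSS replicates 1 to 8, and 7.11 and 6.46 in untreated replicates 5 and 6 against 3.97 to 4.44 in the other untreated colons. Its partner from platelets, Pf4, had a log2 fold change of 0.22, which was called. Ltf, lactoferrin, made by neutrophils and by glandular and squamous mucosa, was 10.46, 10.91, 6.26, 5.24, 10.57, 9.75, 10.30 and 8.80. Both were lowest in replicates 3 and 4, as were Krt6a and the airway-type protease Tmprss11g (4.15 and 3.20, against 7.59 to 10.20 in the other 6). The neutrophil gene Cxcr2 was at least 7.06 in every AOM/DSS colon. The neutrophil score, however, was also lowest in replicates 4 (0.36) and 3 (0.58), against 0.84 to 1.85 in the other 6. Without AOM/DSS replicates 1 and 2 and untreated replicate 5, the highest squamous scores but for AOM/DSS replicate 5, 3411 genes were called higher and 3446 lower. Those called higher then included 17 of 21 neutrophil, 17 of 28 chemokine and 12 of 29 squamous genes, against 17, 20 and 13 with all arrays. The median log2 fold change of the squamous list was then 0.27, against 0.45 with all arrays. How much anal canal each piece held was not tested.

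A few microRNA hairpins have probe sets of their own on the array, which read the hairpin or its host transcript and not the mature microRNA. They were chosen after their values were seen. The mature sequences, from RefSeq (GRCm38.p6), are shown with the seed, bases 2 to 8 that pair with targets, in capitals, since all 3 seeds differ.
miR-31-5p (chr4:88910614-88910635, minus strand): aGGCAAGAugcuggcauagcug
miR-205-5p (chr1:193507503-193507524, minus strand): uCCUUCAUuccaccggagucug
miR-194-5p (chr1:185313325-185313346, plus strand): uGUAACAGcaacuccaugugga
Mir31, raised in injured epithelium, was 3.73 to 5.52 (median 4.58) after AOM/DSS and 3.50 to 4.38 without (log2 fold change 0.72, adjusted p = 0.0176 from limma). The call was lost without AOM/DSS replicates 3 and 5 (0.49, adjusted p = 0.0676 from limma) and without AOM/DSS replicates 1 and 2 and untreated replicate 5 (0.67, adjusted p = 0.0638 from limma). Mir205, of squamous epithelium, was 2.95 to 4.77 (median 4.26) after AOM/DSS and 2.83 to 3.81 without, at a log2 fold change of 0.76 (adjusted p = 0.0352 from limma). This call was lost when single arrays of either group were left out, for example without AOM/DSS replicate 1 (adjusted p = 0.0627 from limma). The untreated ranges of Mir31 and Mir205 and the AOM/DSS median of Mir205 lay below 4.41, the highest signal of absent genes. These levels are not shown to be above background. Mir194-1, of differentiated gut epithelium, was 5.22 to 5.57 after AOM/DSS and 5.54 to 6.10 without, and fell by 0.37 on the log2 scale (adjusted p = 0.0025 from limma). Mir143 and Mir145a, which are made in smooth muscle and fibroblasts, fell, with log2 fold changes of -0.91 and -1.09. Mir145a was lowest in AOM/DSS replicate 3, at 4.44.

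Colons of Cygb-/- mice, measured on 5 AOM/DSS and 8 untreated arrays that share no sample with the wild-type comparison, gave a similar response. In them 3939 genes were called higher (17.8%) and 3794 lower (17.1%). Of the genes called higher in wild type 2913 were also called higher in Cygb-/- colons, 81.2% of the wild-type list and 74.0% of the Cygb-/- list, and 2692 were called lower in both, 66.9% and 71.0% of the 2 lists. Only 7 genes were called in opposite directions. Across all genes the log2 fold changes of the 2 genotypes correlated with a Pearson r of 0.922, over genes that are not independent of each other. The medians of the neutrophil list were 2.34 in wild type and 3.22 in Cygb-/- colons, and those of the matrix protease list 1.40 and 2.15. Some lists were less alike. Of 15 cholesterol and fatty acid synthesis genes 9 were called higher and 1 lower in wild type, against 1 and 3 in Cygb-/- colons. The medians of the clock list were 0.14 and -0.60. Of 29 cell cycle genes 20 were called higher in wild type and 29 in Cygb-/- colons. The differences between the genotypes in these lists were not tested.

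The response itself differed between genotypes, by the interaction in a fit of all 4 groups, in 41 genes (0.185%), with 17 more positive and 24 more negative in Cygb-/- colons. The number called depended on single arrays, since it was 61 probe sets with all arrays, 131 without Cygb-/- AOM/DSS replicate 5 and 111 with array weights. Nxpe4, St3gal4 and Nxpe2, which had the most negative interactions, moved less in wild type than in Cygb-/- colons. Nxpe4, of the neurexophilin and PC-esterase family, had a log2 fold change of 0.21 in wild type and -3.92 in Cygb-/- colons (interaction -4.13, adjusted p = 9.2e-15 from limma), and its relative Nxpe2 -0.53 and -3.12. The sialyltransferase St3gal4 had -0.55 and -3.43. Clock genes differed too: Arntl, a core activator of the clock, fell by 0.93 in wild type and had 0.38 in Cygb-/- colons, while its output gene Dbp had 0.14 and -1.95. The hour at which the colons were taken is not given in the sources used here. In wild-type mice alone, 1 of 14 measured clock genes was called higher and 3 lower, the lower calls near the 18.1% of all genes. Their median log2 fold change was 0.14. Arntl (7.57 to 7.88 after AOM/DSS, 8.14 to 9.29 without) and Npas2 (8.03 to 8.44, 8.66 to 9.57) were lower in every AOM/DSS colon. Nr1d1, another member of the list, was also called lower (-0.58). Dbp, whose peak follows that of Arntl and Npas2, ranged from 8.21 to 9.91 among untreated colons.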

How the data were processed

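Total RNA of each distal colon was hybridised to 1 Affymetrix Mouse Gene 2.0 ST array. The deposited values are log2 intensities per probe set, which the authors background-corrected, normalised and summarised with RMA, and no absolute amount or depth can be read from them. RMA was run from the oligo package of Bioconductor, with what the methods call quartile normalization, and its version and the genome build of the probe sets are not given in the sources used here. The table holds 41345 probe sets, of which 23521 name 1 gene, 1820 several and 16004 none in the platform annotation. Each gene with 1 symbol was read from its probe set with the highest mean over the 16 arrays, giving 22180 genes, of which 21994 were found in the reference gene table.

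AOM/DSS and untreated wild-type arrays were compared on the log2 values as deposited with limma 3.58.1 (lmFit and eBayes, two-sided, R 4.3.3), and p-values, adjusted by the Benjamini-Hochberg method for every probe set on the array, were called under 0.05. The interaction with genotype came from 1 fit of the 4 groups. Tables and principal components were made with Python 3.11.15, numpy 2.4.6 and pandas 2.3.3. The fit was tested on simulated arrays, in which few probe sets changed and both groups had the spread of the untreated arrays. Its behaviour with as many changes and as uneven a spread as seen here was not tested. Standard errors are those of the limma fit, and the number of arrays limits their precision. The labels do not name a hybridisation batch, and replicate numbers name different animals.

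Genes named are the 15 largest rises and falls called, up to 4 members of each list with the smallest p and other members as values, Cygb, Psmb6 and Krt20, the 10 genes that vary most among AOM/DSS arrays, and the 5 highest and 5 lowest genes called in the interaction. Of these Psmb6, a proteasome subunit, had a log2 fold change of 0.07 and was not called. Hox genes outside the list of intestinal identity, microRNAs, Isx, Lgr5, Itln1, Ang4, Vil1, Epcam, the further genes with large loadings and the CDX motif were chosen after their values were seen. The lists and the comparison itself were chosen with earlier results of these data known. Alternatives covered normalisation, centring, dim probe sets, the variance model, array weights, the methods' t-test with its 1.5-fold filter, the replicate block, the choice of probe set, and each array left out.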

Additional observations from a re-analysis of the deposited data

Results flagged for a closer look

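Of 170 sets of 8 arrays examined, 8 held 1 array apart from the others of its group by Dixon's criterion, and chance alone sets about 1 in 20 apart. Among AOM/DSS colons, replicate 8 stood apart in Saa3 (10.71) and in the cytokine score (0.80), and replicate 3 in Tmigd1 (3.36, the lowest) and Slc10a2 (6.92, the highest). Among untreated colons, replicate 2 stood apart in B3gnt6 (8.69, the lowest) and Pnliprp2 (8.35), and replicate 5 in the chemokine score (-0.38) and the red blood cell score (0.59), which rests on 1 measured gene, Slc4a1.

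The response to AOM/DSS differed between genotypes in the following genes by the interaction term of limma, given as the Cygb-/- response minus the wild-type response on the log2 scale. It was more negative in Cygb-/- colons for Nxpe4 (-4.13), St3gal4 (-2.88), Nxpe2 (-2.60), Dbp (-2.08) and Ciart (-1.92). It was more positive for BC018473 (1.99), Ccnb1ip1 (1.49), Arntl (1.30), Gfpt2 (0.96) and Elmod1 (0.84). The part of the genotypes' own background in these differences was not tested.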

How the results depend on the processing

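Of 216 named genes followed, 191 were called, 178 kept their side of the threshold in every alternative run that held them, and 0 reversed. The run without dim probe sets held 191 of the 216. Most of the genes followed were named for large differences or small p in the main fit, which favours keeping the call. With the methods' t-test after its 1.5-fold filter, 2214 probe sets were called higher and 1233 lower, and 1370 and 847 genes, since only probe sets past that fold can be called. Leaving out each wild-type array in turn gave 4559 to 5384 probe sets higher and 5156 to 5996 lower, and 3221 to 3793 genes higher and 3567 to 4009 lower. The interaction was called for 61 probe sets, for 111 with array weights and for 41 to 131 when each of the 5 Cygb-/- AOM/DSS arrays was left out in turn, the highest without replicate 5. The other arrays were not left out for the interaction. The cause was not tested. With the replicate number as a block, 4454 probe sets were called higher and 4814 lower. The numbers do not pair the samples: the mean correlation of same-numbered arrays was -0.0076, and 1 array correlated best with its own number. The next 3 alternatives were chosen after seeing the data. Without AOM/DSS replicates 1 and 2 and untreated replicate 5, 3411 genes were higher and 3446 lower. Without AOM/DSS replicates 3 and 5 there were 3176 and 3477, and without untreated replicates 3 and 8 there were 2944 and 3204. Genes at or below the measurable level allow only bounds.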
